A study of Mus musculus with 5 samples.

Results

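The genes described here encode the enzymes of cholesterol and fatty acid synthesis and the proteins that sense sterols, followed in NIH/3T3 mouse fibroblasts that express a mutant histone. The 32 members were chosen by gene symbol from the known steps of the pathway, with earlier results of these data known. They comprised 18 enzymes of the sterol arm (7 of the mevalonate steps and 11 of the squalene and sterol steps), 8 enzymes of the fatty acid arm, and 6 genes of regulation and sterol transfer. Of these, 31 were among the 14454 gene symbols listed, and all 31 were among the 10052 genes that passed the filter on low values. Expression of Hmgcs1, the synthase of the mevalonate steps, was not analysed here, and only its promoter was.

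Messenger RNA was sequenced in 5 NIH/3T3 lines, an immortalised embryonic mouse fibroblast line, each with an integrated human histone H2A fused to EGFP. In 4 lines, numbered 3, 6, 15 and 18, the histone carried the T120D substitution, an aspartate in place of a threonine, and in 1 line it was wild type (wt). All 5 were grown in DMEM with 10% fetal calf serum and 10 µg/ml gentamicin. Neither the promoter of the transgene nor whether each line was grown from a single clone is given in the sources used here, and the wt group had no replicate.

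Cells sense cholesterol in the endoplasmic reticulum. When sterols are low, the escort protein encoded by Scap carries the membrane-bound transcription factors encoded by Srebf1 and Srebf2 to the Golgi, where proteases release them. When sterols are plentiful, the proteins encoded by Insig1 and Insig2 hold the escort back. Srebf2 is best known for driving sterol synthesis and uptake, and Srebf1 for driving fatty acid synthesis, and Insig1 is itself a target of these factors.

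Of the 31 members tested, 3 differed between the T120D lines and the wt line: Insig1 and Fasn were higher and Insig2 was lower in T120D. That is 9.68% of the members, beside 13.1% of all tested genes, so the members were not called more often than other genes. Higher calls were made for 2 members, where 7.65% of all tested genes were called higher, and a lower call for 1, where 5.45% were called lower. None of the 17 tested enzymes of the sterol arm was called by limma, while 3 of them had an unadjusted p under 0.05 (Sc4mol, Cyp51 and Idi1), all higher. Over all members 7 had an unadjusted p under 0.05, beside 28.5% of all tested genes. The calls come from limma on log2(RPKM + 1) at an adjusted p under 0.05, with p-values adjusted over all tested genes. With a single wt library, the error of each difference came from the variation among T120D lines, moderated toward that of other genes at a similar level. An exact permutation of 1 line among 5 could not give a p below 0.2. In these bulk libraries, fewer cells that express a gene and less RNA per cell cannot be told apart.

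**Figure D1:**
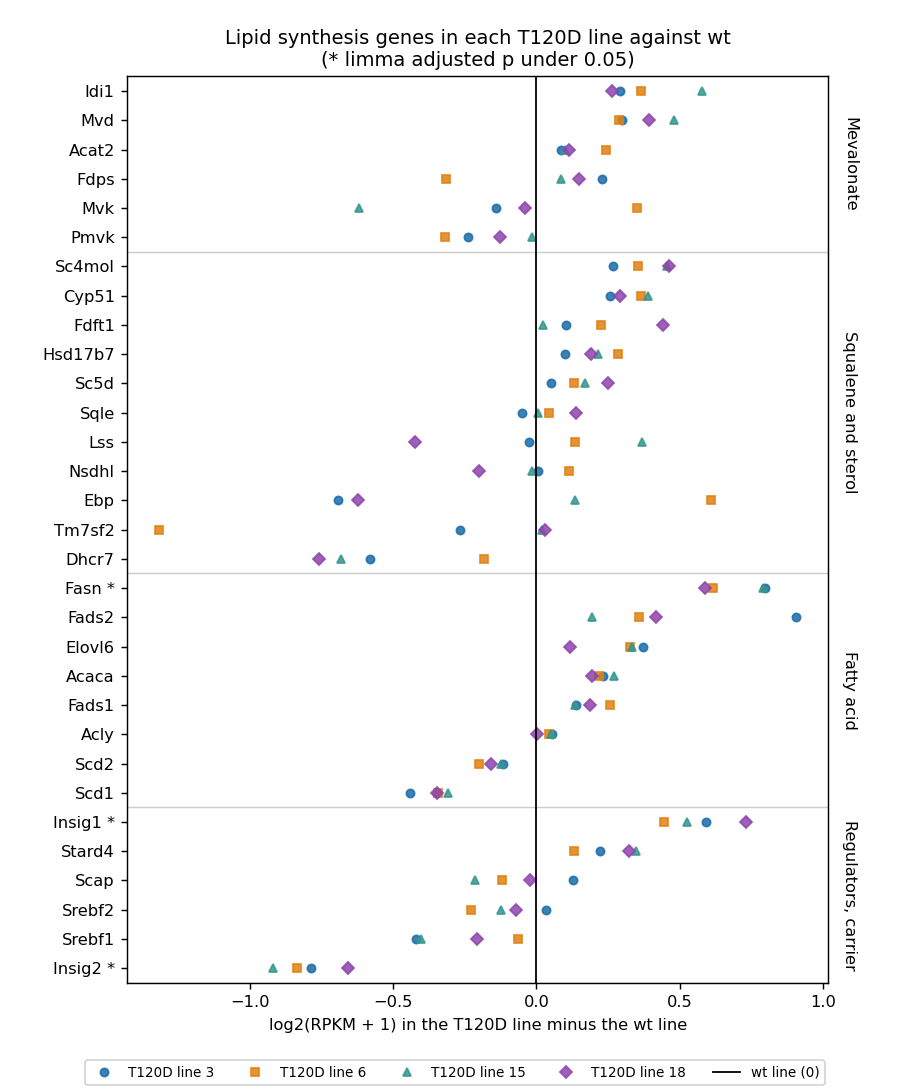
Difference in log2(RPKM + 1) between each T120D line and the wt line (vertical line at 0) for the 31 tested members, grouped by step and sorted within groups; each point is 1 line. Insig1 and Fasn lie above wt and Insig2 below it in all 4 lines, while Ebp, Lss and Mvk scatter on both sides.

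From the spacing of low values, depth was estimated at 2525000 to 2730000 reads per line, so that 1 RPKM of a transcript of 2000 bases stood for 5.05 to 5.46 reads. A member had to differ by 3.52 times its standard error to be called, which came to between 0.29 (Scd2) and 1.72 (Tm7sf2) on the log2 scale, with a median of 0.53 over the 31 members. Fibroblast markers were present in all lines, and all 10 on the list were tested. Of these, 1 was called higher and 6 lower in T120D, against 7.65% and 5.45% of all tested genes. Their summed level was 2548 to 2905 RPKM in T120D and 3243 RPKM in wt. Of 10 adipocyte markers 4 were listed, Adipoq and Pparg at 0 in all lines, with a summed level of 0.0642 to 0.0687 RPKM in T120D and 1.15 RPKM in wt. Of 7 epithelial markers 1 was listed, with at most 0.0837 RPKM in T120D and 0.249 RPKM in wt. For macrophages 5 of 7 markers were listed, with Aif1 at 0 in all lines, and they summed to 2.88 to 7.27 RPKM in T120D and 3.52 RPKM in wt. No hepatocyte marker was listed. The part of these levels in the results was not tested.

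The sterol-sensing pair moved in opposite directions. Insig1 was at 30.3, 27.3, 28.9 and 33.5 RPKM in T120D lines 3, 6, 15 and 18, against 19.8 RPKM in wt. All 4 T120D lines lay above wt, with line 18 the highest and line 6 the lowest of them. The mean of 30.03 ± 2.64 RPKM (SD, n = 4) was 1.52-fold that of wt, a log2 difference of 0.57 (SE 0.14, 95% interval 0.26 to 0.88, limma adjusted p = 0.0265). The call was lost when genes of any level were tested (limma adjusted p = 0.0737), without the intensity trend (0.0814) and without line 3 (0.0578), in a range of 0.0195 to 0.0814 over 10 alternatives.

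Insig2, whose protein shares the retention function, was lower. Its level was 9.96, 9.60, 9.004 and 10.97 RPKM in T120D lines 3, 6, 15 and 18, against 17.9 RPKM in wt. All 4 T120D lines lay below wt, line 18 nearest to it. The T120D mean of 9.88 ± 0.825 RPKM (SD, n = 4) was 1.81-fold lower than wt, a log2 difference of -0.80 (SE 0.16, 95% interval -1.15 to -0.44, limma adjusted p = 0.0122), and the call held in all 10 alternatives (0.00835 to 0.0379). With the median length of its 4 annotated transcripts (1272 bases), about 30 to 37 reads stood behind each T120D value and 62 behind that of wt. These numbers scale with the length chosen. At that length, counting of reads alone would give an SD of about 0.23 on the log2 scale, against 0.11 seen between T120D lines. The interval was built from the spread between T120D lines, moderated as above, and no alternative replaced the single wt library. The ratio of Insig1 to Insig2 in RPKM was 3.04, 2.85, 3.21 and 3.06 in T120D lines 3, 6, 15 and 18, against 1.11 in wt. This ratio was formed after both values had been seen and has no test.

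**Figure D2:**
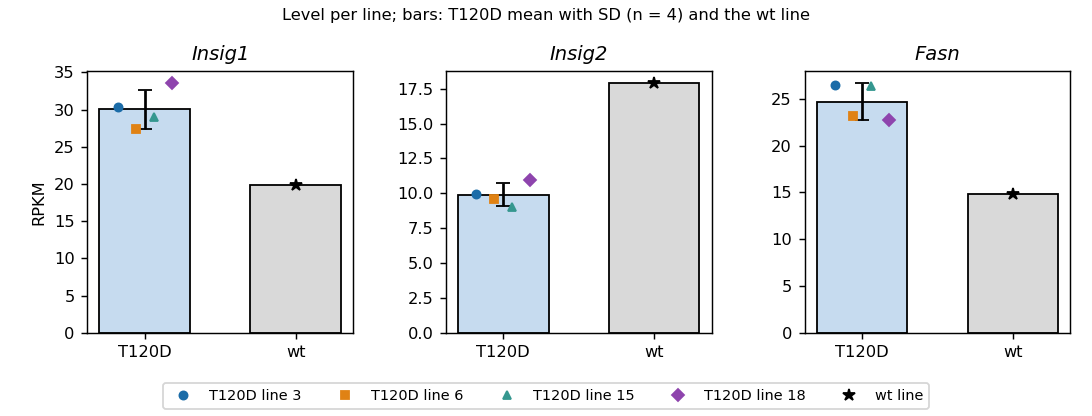
Level in RPKM of the 3 called members in each line; bars give the T120D mean with its SD (n = 4) on the left and the single wt line on the right. Insig1 and Fasn stand above wt in every T120D line, and Insig2 below it.

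Promoter sequence was not used in choosing the members, and was set beside their values. Of the 32 members, 25 had a window in the RefSeq promoter table (build GRCm38.p6), and the 250 bases before each annotated start were searched on both strands for 4 short motifs. The NF-Y box (CCAAT), bound by a factor that works beside the sterol-regulated factors at many promoters, was present for 14 of 15 sterol enzymes (93.3%), 4 of 5 regulators (80.0%) and 1 of 5 fatty acid enzymes (20%), against 41.5% of 8101 tested genes with a window and 37.5% of all 27025 genes with a window. The Sp1 box (GGGCGG) was present for 14 of 15 sterol enzymes, 5 of 5 regulators and 2 of 5 fatty acid enzymes, against 67.3% of tested genes and 35.4% of all genes. An E-box (CACGTG) was found for 3 of 15 sterol enzymes, 2 of 5 regulators and 0 of 5 fatty acid enzymes, against 10.3% of tested genes and 6.86% of all genes. The strict core of the sterol response element (TCACNCCAC) was found for 1 member, Hmgcs1, against 1.14% of tested genes and 1.22% of all genes. A gene counted once if any of its windows held a match, and matches of different motifs may overlap. These shares describe letters in a fixed window and not binding.

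**Figure D3:**
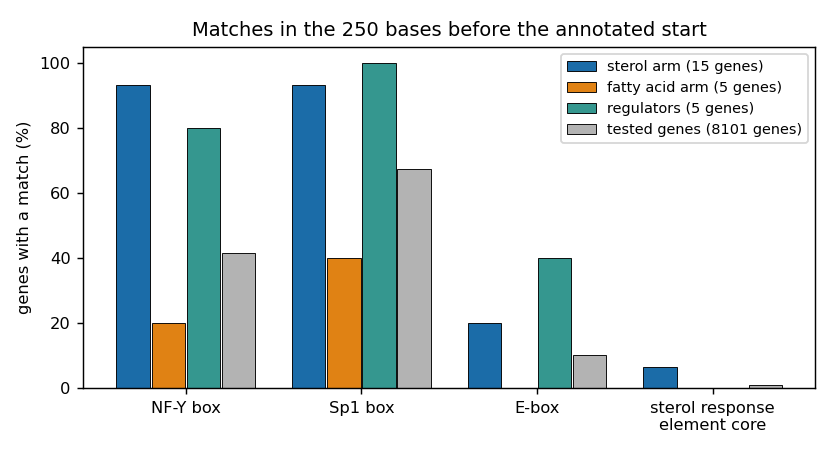
Percentage of genes with at least 1 match to each motif in the 250 bases before the annotated start, for 15 sterol enzymes, 5 fatty acid enzymes, 5 regulators and 8101 tested genes. The NF-Y box is found for 93.3% of the sterol enzymes and 20% of the fatty acid enzymes, with the tested genes at 41.5%.

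The upstream sequences of the 3 called members, and of Sc4mol as the sterol enzyme nearest to a call, are shown so that these matches can be seen in place. They are 5′ to 3′ on the strand of the gene and end at the base before the annotated start, with motif matches on either strand in capitals. The Insig1 sequence is chr5:28071162-28071411 on the plus strand, that of Insig2 is chr1:121332590-121332839 on the minus strand (the first of its 3 windows), that of Fasn is chr11:120824548-120824797 on the minus strand and that of Sc4mol, named Msmo1 in the table, is chr8:64733579-64733828 on the minus strand, all in GRCm38.p6.
Insig1: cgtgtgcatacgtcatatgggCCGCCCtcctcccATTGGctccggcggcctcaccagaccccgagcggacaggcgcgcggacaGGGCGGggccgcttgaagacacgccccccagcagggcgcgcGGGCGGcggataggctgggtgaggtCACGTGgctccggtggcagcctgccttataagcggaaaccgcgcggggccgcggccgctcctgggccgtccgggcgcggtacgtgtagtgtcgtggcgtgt
Insig2: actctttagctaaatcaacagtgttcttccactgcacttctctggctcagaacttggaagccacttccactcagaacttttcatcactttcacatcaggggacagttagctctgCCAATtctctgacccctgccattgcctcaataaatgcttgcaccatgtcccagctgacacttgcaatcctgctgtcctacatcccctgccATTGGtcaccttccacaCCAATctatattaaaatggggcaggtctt
Fasn: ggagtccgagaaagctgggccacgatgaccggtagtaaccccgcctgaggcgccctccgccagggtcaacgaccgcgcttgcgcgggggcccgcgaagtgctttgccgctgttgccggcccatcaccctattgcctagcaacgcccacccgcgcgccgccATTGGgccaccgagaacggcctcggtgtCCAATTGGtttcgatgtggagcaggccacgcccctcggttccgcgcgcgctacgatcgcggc
Sc4mol: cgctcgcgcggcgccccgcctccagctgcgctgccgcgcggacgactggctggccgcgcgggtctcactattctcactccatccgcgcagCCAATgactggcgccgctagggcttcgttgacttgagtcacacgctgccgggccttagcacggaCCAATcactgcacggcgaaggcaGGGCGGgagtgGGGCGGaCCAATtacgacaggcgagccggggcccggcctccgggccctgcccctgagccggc

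The Insig1 window held 1 E-box beginning 101 bases before the start, 1 NF-Y box and 3 Sp1 boxes. Insig2 had 3 NF-Y boxes and none of the other motifs in this window, while its other windows held Sp1 boxes only. Which of its 3 starts these cells used was not tested. In Fasn there were 3 NF-Y boxes, of which 2 overlap, and in Sc4mol 3 NF-Y boxes, the nearest beginning 55 bases before the start, and 2 Sp1 boxes.

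The transcription factors and their escort were not called. Srebf2 was at 27.9, 23.1, 24.9 and 25.8 RPKM in T120D lines 3, 6, 15 and 18, against 27.2 RPKM in wt. Line 3 lay above wt and the others below (log2 difference -0.10, 95% interval -0.40 to 0.21, limma adjusted p = 0.685). Srebf1 was less abundant per length, at 5.43, 7.21, 5.51 and 6.45 RPKM in T120D lines 3, 6, 15 and 18, against 7.59 RPKM in wt. All 4 T120D values were below that of wt, by a log2 difference of -0.27 (95% interval -0.72 to 0.17, limma adjusted p = 0.403), as is the case for 32.3% of all tested genes. Scap was at 7.64, 6.29, 5.81 and 6.79 RPKM in T120D lines 3, 6, 15 and 18, against 6.91 RPKM in wt, so that the groups overlapped (limma adjusted p = 0.873). Stard4, which encodes a carrier of cholesterol between membranes, was at 11.9, 11.1, 13.1 and 12.8 RPKM in T120D lines 3, 6, 15 and 18, against 10.1 RPKM in wt (log2 difference 0.26, 95% interval -0.09 to 0.60, limma adjusted p = 0.312). Exons of Srebf1 overlap those of Rai1 on the opposite strand in the GRCm38 annotation, and the authors' use of strand is not given, so its values are uncertain.

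The mevalonate steps turn acetyl-CoA into farnesyl pyrophosphate. Acat2, which makes acetoacetyl-CoA, was the most abundant of the 6 tested enzymes, at 54.9, 61.2, 55.4 and 55.9 RPKM in T120D lines 3, 6, 15 and 18, against 51.6 RPKM in wt (log2 difference 0.14, 95% interval -0.11 to 0.38, limma adjusted p = 0.448). Idi1, the isomerase of isopentenyl pyrophosphate, was at 26.1, 27.4, 31.97 and 25.6 RPKM in T120D lines 3, 6, 15 and 18, against 21.1 RPKM in wt (log2 difference 0.37, 95% interval 0.04 to 0.70, limma adjusted p = 0.128). Mvd, the decarboxylase, was at 7.39, 7.32, 8.51 and 7.95 RPKM in T120D lines 3, 6, 15 and 18, against 5.81 RPKM in wt (log2 difference 0.37, limma adjusted p = 0.189). For these 3 enzymes all T120D lines lay above wt, which was true of 31.1% of all tested genes.

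The kinases and the synthase of the same branch did not share that order. Pmvk, the phosphomevalonate kinase gene, was at 7.98, 7.48, 9.47 and 8.69 RPKM in T120D lines 3, 6, 15 and 18, against 9.58 RPKM in wt, and all T120D lines lay below wt (log2 difference -0.17, limma adjusted p = 0.552). Mvk, the mevalonate kinase gene, had 9.53, 13.8, 6.57 and 10.3 RPKM in T120D lines 3, 6, 15 and 18, against 10.6 RPKM in wt. Line 6 was the highest and line 15 the lowest of the 5 lines, with wt between them (limma adjusted p = 0.84). Fdps, which makes farnesyl pyrophosphate, had 17.8, 11.9, 16.0 and 16.8 RPKM in T120D lines 3, 6, 15 and 18, against 15.0 RPKM in wt, with line 6 alone below wt (limma adjusted p = 0.927).

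The squalene and sterol steps turn farnesyl pyrophosphate into cholesterol. Sqle, the epoxidase that adds oxygen to squalene and a rate-limiting step, was at 45.8, 48.9, 47.6 and 52.2 RPKM in T120D lines 3, 6, 15 and 18, against 47.4 RPKM in wt. Line 3 lay below wt and the others above it, and the log2 difference of 0.03 had a 95% interval of -0.22 to 0.29 (limma adjusted p = 0.871). Sc4mol and Cyp51, which remove methyl groups from the sterol ring, came closest to a call in the sterol arm. Sc4mol was at 57.2, 60.9, 65.5 and 65.8 RPKM in T120D lines 3, 6, 15 and 18, against 47.4 RPKM in wt (log2 difference 0.38, 95% interval 0.13 to 0.64, limma adjusted p = 0.057). It was called at a mean of at least 5 RPKM (limma adjusted p = 0.0463) and under median scaling (0.045), in a range of 0.045 to 0.169 over 10 alternatives. Cyp51 was at 35.7, 38.6, 39.3 and 36.6 RPKM in T120D lines 3, 6, 15 and 18, against 29.7 RPKM in wt (log2 difference 0.33, 95% interval 0.07 to 0.58, limma adjusted p = 0.095).

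Other enzymes of this branch lay nearer to wt. Fdft1, the squalene synthase gene, had 14.7, 16.1, 13.9 and 18.9 RPKM in T120D lines 3, 6, 15 and 18, against 13.6 RPKM in wt (limma adjusted p = 0.5). Hsd17b7, a sterol ketoreductase gene, had 10.4, 11.9, 11.3 and 11.1 RPKM in T120D lines 3, 6, 15 and 18, against 9.62 RPKM in wt, and Sc5d, the desaturase gene, had 17.9, 19.04, 19.5 and 20.8 RPKM against 17.3 RPKM. In these 3 genes every T120D line lay above wt, by log2 differences of 0.20, 0.20 and 0.15, as was the case for 31.1% of all tested genes. Nsdhl, which encodes a decarboxylating sterol dehydrogenase, was at 19.1, 20.6, 18.8 and 16.4 RPKM in T120D lines 3, 6, 15 and 18, against 19.01 RPKM in wt, within the spread of the T120D lines (limma adjusted p = 0.934). Exons of Fdft1 and Cyp51 overlap those of Ctsb and Akap9 on the opposite strand in the GRCm38 annotation, so their values are uncertain too.

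The 4 remaining enzymes of this branch varied widely among the T120D lines. Ebp, the sterol isomerase gene, had 4.32, 12.1, 8.42 and 4.58 RPKM in T120D lines 3, 6, 15 and 18, against 7.58 RPKM in wt, a range of 2.80-fold within T120D that held wt inside it. Lss, the lanosterol synthase gene, had 7.87, 8.92, 10.7 and 5.74 RPKM in T120D lines 3, 6, 15 and 18, against 8.03 RPKM in wt. Dhcr7, the last reductase on a route to cholesterol, had 3.93, 5.51, 3.602 and 3.37 RPKM in T120D lines 3, 6, 15 and 18, against 6.38 RPKM in wt. All T120D lines of Dhcr7 lay below wt, and its log2 difference was -0.55 (95% interval -1.11 to 0.0044, limma adjusted p = 0.178). Tm7sf2, a sterol reductase gene, was at 1.07, 0, 1.52 and 1.54 RPKM in T120D lines 3, 6, 15 and 18, against 1.49 RPKM in wt, about 6 reads or fewer in any line, and its exons overlap those of Vps51 on the same strand. Between 19 and 57 reads stood behind the values of Ebp and between 25 and 49 behind those of Dhcr7.

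Fasn, the fatty acid synthase gene, was the called enzyme of the fatty acid arm. It was at 26.5, 23.2, 26.3 and 22.8 RPKM in T120D lines 3, 6, 15 and 18, against 14.8 RPKM in wt. Lines 3 and 15 were the highest, and all 4 were above wt. The mean of 24.7 ± 1.98 RPKM (SD, n = 4) was 1.67-fold that of wt, a log2 difference of 0.70 (SE 0.14, 95% interval 0.39 to 1.01, limma adjusted p = 0.0126), and the call held in all 10 alternatives (0.00931 to 0.0484). About 601 to 704 reads stood behind the T120D values and 406 behind that of wt.

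The steps that supply Fasn were not called. Acly, which makes cytosolic acetyl-CoA from citrate, was at 34.5, 34.2, 34.4 and 33.2 RPKM in T120D lines 3, 6, 15 and 18, against 33.2 RPKM in wt (log2 difference 0.04, 95% interval -0.21 to 0.28, limma adjusted p = 0.852). Acaca, the acetyl-CoA carboxylase gene, was at 4.47, 4.42, 4.62 and 4.33 RPKM in T120D lines 3, 6, 15 and 18, against 3.65 RPKM in wt. Its 4 T120D values lay close together and above wt (log2 difference 0.23, 95% interval -0.19 to 0.65, limma adjusted p = 0.457). Elovl6, which lengthens the product of Fasn, was at 16.2, 15.6, 15.7 and 13.4 RPKM in T120D lines 3, 6, 15 and 18, against 12.3 RPKM in wt (log2 difference 0.29, limma adjusted p = 0.248).

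Among the desaturases, none was called. Scd1 and Scd2 encode stearoyl-CoA desaturases, which make monounsaturated fatty acids. Scd1 was at 25.8, 27.7, 28.4 and 27.6 RPKM in T120D lines 3, 6, 15 and 18, against 35.4 RPKM in wt, with all T120D lines below wt (log2 difference -0.36, 95% interval -0.62 to -0.09, limma adjusted p = 0.0787). It was called lower under quantile normalization (limma adjusted p = 0.0404), in a range of 0.0404 to 0.169 over 10 alternatives. Scd2, the most abundant member per length, was at 187, 177, 187 and 182 RPKM in T120D lines 3, 6, 15 and 18, against 203 RPKM in wt (log2 difference -0.15, 95% interval -0.34 to 0.04, limma adjusted p = 0.281). The desaturases of this family are similar in sequence, and the authors' counting could split reads between them.

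Fads1 and Fads2 encode the desaturases of polyunsaturated fatty acids. Fads1 was at 46.9, 51.0, 46.8 and 48.5 RPKM in T120D lines 3, 6, 15 and 18, against 42.5 RPKM in wt (log2 difference 0.18, limma adjusted p = 0.313). Fads2 was at 22.3, 14.9, 13.2 and 15.6 RPKM in T120D lines 3, 6, 15 and 18, against 11.4 RPKM in wt. Line 3 stood highest, and the log2 difference of 0.47 had a 95% interval of -0.07 to 1.004 (limma adjusted p = 0.23).

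Set side by side, the arms gave 0 called of 17 tested enzymes for sterols and 1 of 8 for fatty acids, against 13.1% over all tested genes. The median log2 difference was 0.04 in the sterol arm and 0.20 in the fatty acid arm, against -0.02 over all tested genes. The gap depended on the genes and lines used. With a mean of at least 5 RPKM the medians were 0.14 for sterols and 0.18 for fatty acids, against 0.036 over all genes then tested. Without 1 T120D line the sterol median was 0.057 to 0.12. By line, the median of the sterol arm was 0.05, 0.23, 0.10 and 0.14 above wt in T120D lines 3, 6, 15 and 18, and that of the fatty acid arm 0.18, 0.24, 0.16 and 0.15. Every T120D line thus had a positive median in both arms, and the fatty acid median exceeded the sterol median in each. In lines 6 and 18 the arms were close, at 0.24 against 0.23 and 0.15 against 0.14. All these medians subtract the same single wt library, so the shared sign and order of the arms are not independent between lines. All T120D lines lay above wt for 8 of 17 sterol enzymes and 6 of 8 fatty acid enzymes, against 31.1% of all tested genes, and below wt for 2 enzymes in each arm, against 32.3%. The T120D values straddled wt for the other 7 sterol enzymes and for 0 of the fatty acid enzymes. For Acly, line 18 was above wt only by 33.23 RPKM against 33.18 RPKM. These medians and counts describe genes that share the same 5 libraries, and the difference between the arms was not tested. The part of read depth in the counts was not tested either. The median SD of log2(RPKM + 1) between T120D lines was 0.13 for the sterol enzymes, 0.06 for the fatty acid enzymes and 0.16 over all tested genes. From the estimated reads, counting alone would give a median SD of about 0.14 for the sterol enzymes and 0.07 for the fatty acid enzymes, as large as the spread seen. For the 6 regulators it would give about 0.14, against 0.11 seen between T120D lines.

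**Figure D4:**
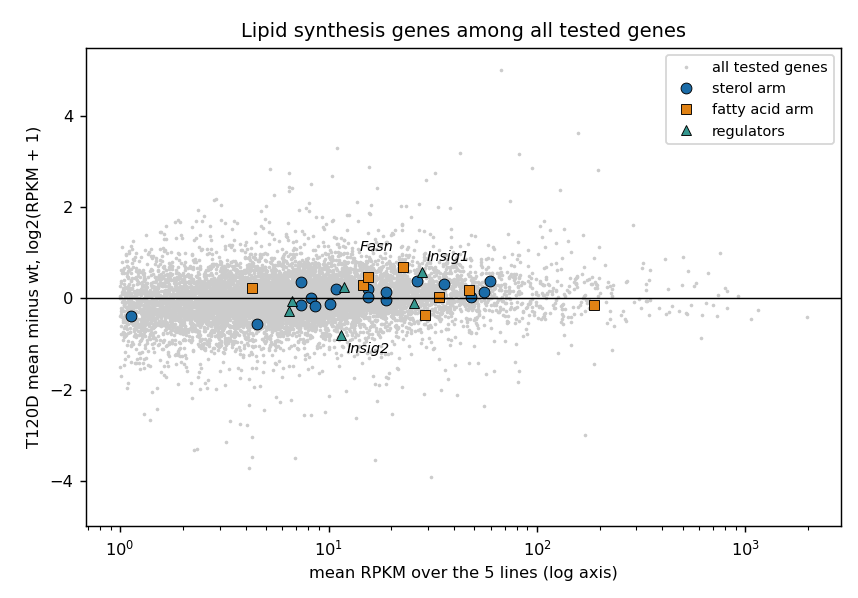
Difference between the T120D mean and wt in log2(RPKM + 1) against the mean RPKM over the 5 lines (log axis) for all 10052 tested genes, with the members coloured by arm. The members lie between -0.80 (Insig2) and 0.70 (Fasn), within the range of the other genes.

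A list of 69 symbols for other genes of the pathway, likewise chosen with earlier results known, was set beside the members. Of these, 62 were listed in the tables and 56 were tested. In T120D 7 were called higher and 5 lower, 21.4% against 13.1% of all tested genes (7.65% higher and 5.45% lower). By role, 2 of 15 tested isoprenoid and sterol genes were higher and 1 lower. Of 10 genes of SREBP processing and sterol sensing 2 were higher and 0 lower, and of 18 genes of fatty acid supply and elongation 3 were higher and 0 lower. Of 13 genes of cholesterol transport and storage, 0 were higher and 4 lower. Of those 4, Vldlr passed the filter on low values through wt alone, its T120D mean being under 1 RPKM, so that it had to differ. Without it, 3 of 12 transport genes were lower, and 11 of 55 other genes of the pathway were called. The call held for 5 of these 12 genes in every alternative in which they were tested and ended in at least 1 alternative for 7, with Vldlr among the 5.

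**Figure D5:**
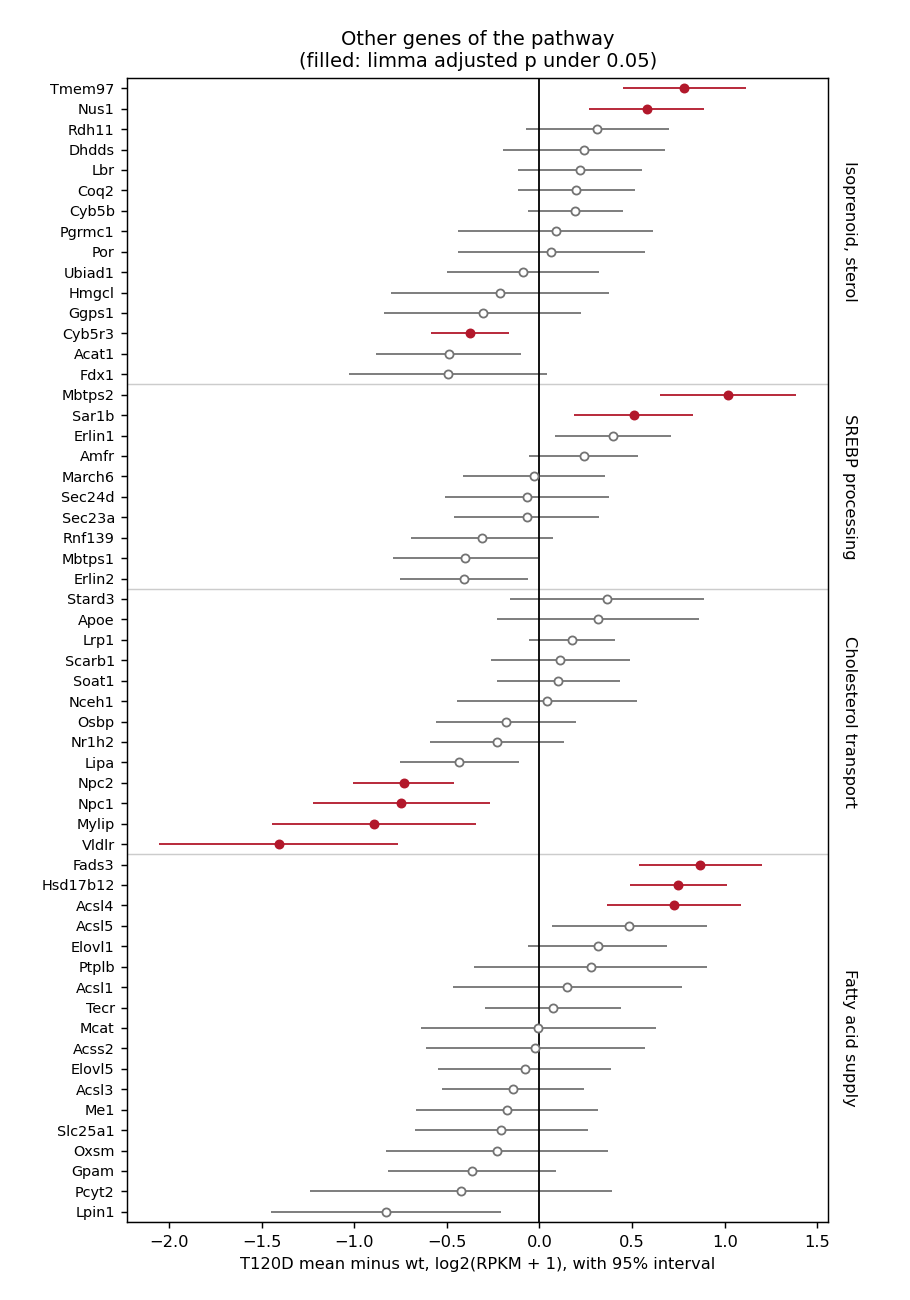
Difference between the T120D mean and wt in log2(RPKM + 1) with its 95% interval for the 56 tested other genes of the pathway, by role; filled points passed the limma test. Called transport genes lie below 0 (Npc2, Npc1, Mylip and Vldlr, the last tested only through its wt level), and called genes of processing and fatty acid supply above it. The tested genes of each role as a whole lie on both sides. Below 0 are 7 of 13 transport genes, 6 of 10 processing genes and 10 of 18 fatty acid supply genes.

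Mbtps2, which encodes the membrane protease that makes the final cut to release the sterol-regulated factors, had the largest difference of the higher ones. It was at 11.9, 10.5, 11.2 and 12.8 RPKM in T120D lines 3, 6, 15 and 18, against 5.20 RPKM in wt, 2.23-fold higher (log2 difference 1.019, SE 0.16, limma adjusted p = 0.00497). Mbtps1, the protease of the first cut, was at 9.61, 12.7, 12.3 and 11.3 RPKM in T120D lines 3, 6, 15 and 18, against 15.4 RPKM in wt, and was not called (log2 difference -0.40, limma adjusted p = 0.168). Sar1b, a GTPase of the vesicles that carry the factors, had a mean of 15.8 ± 1.01 RPKM (SD, n = 4) in T120D against 10.8 RPKM in wt (limma adjusted p = 0.048). Its call ended in 6 of 10 alternatives, with limma adjusted p of 0.0359 to 0.0924.

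Tmem97, a sterol-regulated membrane protein that binds the lysosomal cholesterol transporter, averaged 40.6 ± 4.74 RPKM in the T120D lines (SD, n = 4) against 23.1 RPKM in wt, a log2 difference of 0.78 (limma adjusted p = 0.0101), and this call was lost when genes of any level were tested (0.0639). Nus1, a subunit of the enzyme that makes dolichol precursors, averaged 21.9 ± 1.63 RPKM in T120D and 14.3 RPKM in wt (limma adjusted p = 0.0257). The call of Nus1 was lost with genes of any level tested (limma adjusted p = 0.0563), without a trend (0.071) and without line 3 (0.0532). Cyb5r3, the reductase that feeds electrons to sterol and fatty acid desaturases, was lower, at 68.3 ± 0.908 RPKM in T120D and 88.9 RPKM in wt (limma adjusted p = 0.0304), with a range of 0.0207 to 0.142 over 10 alternatives, 4 of which ended the call.

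Among genes of fatty acid supply, Hsd17b12, which acts in the elongation cycle, was at 42.6, 40.4, 42.7 and 46.2 RPKM in T120D lines 3, 6, 15 and 18, against 25.1 RPKM in wt, 1.71-fold higher (limma adjusted p = 0.00433). Fads3, a relative of Fads1 and Fads2, was at 28.8, 23.5, 26.8 and 23.7 RPKM in T120D lines 3, 6, 15 and 18, against 13.6 RPKM in wt, 1.89-fold higher (limma adjusted p = 0.0065). Acsl4, which activates long polyunsaturated fatty acids, averaged 16.4 ± 1.68 RPKM in the T120D lines (SD, n = 4) against 9.48 RPKM in wt (limma adjusted p = 0.0199). The call of Acsl4 was lost with genes of any level tested (limma adjusted p = 0.0665) and without a trend (0.053). In all 3 genes the T120D lines lay above wt, as for 31.1% of all tested genes.

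The lower genes of transport act in uptake and in lysosomal export of cholesterol. Npc2, the soluble cholesterol carrier of the lysosome, was at 43.5, 46.7, 40.2 and 40.0 RPKM in T120D lines 3, 6, 15 and 18, against 71.4 RPKM in wt, 1.67-fold lower (limma adjusted p = 0.00581, with the call held in all 10 alternatives). Npc1, the membrane transporter that works with it, averaged 2.75 ± 0.262 RPKM in the T120D lines (SD, n = 4) against 5.28 RPKM in wt (limma adjusted p = 0.0493), but its call ended in 8 of 9 alternatives, with limma adjusted p of 0.0392 to 0.0862. Vldlr, a lipoprotein receptor gene, was at 0.431, 0.8498, 0.592 and 0.690 RPKM in T120D lines 3, 6, 15 and 18, against 3.33 RPKM in wt, 5.20-fold lower in RPKM. As wt alone brought Vldlr into the fit, this is a description with no test. About 6 to 14 reads stood behind each T120D value of Vldlr. Mylip, which encodes a ubiquitin ligase induced by sterol-sensing nuclear receptors, averaged 2.61 ± 0.501 RPKM in T120D and 5.66 RPKM in wt (limma adjusted p = 0.0429), and its call ended in 5 of 9 alternatives, with limma adjusted p of 0.0383 to 0.104.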

How the data were processed

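Total RNA of 5 NIH/3T3 lines was made into libraries with a stranded TruSeq mRNA kit, per the labels' protocols. The authors deposited 1 table of RPKM values per line, reads scaled to transcript length and mapped reads. Per the submitters' processing notes, Partek and build mm9 were used. No source used here gives the aligner, the annotation or whether reads were counted by strand, which leaves overlapping genes and gene families uncertain.

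A gene was tested where its 5-line mean reached 1 RPKM, as log2(RPKM + 1), a scale that understates changes of low genes. The T120D mean minus wt was tested with limma 3.58.1 in R 4.3.3, two-sided and moderated by empirical Bayes along an intensity trend. P-values were adjusted by Benjamini-Hochberg over all tested genes, and genes were called under 0.05. In an earlier check on simulated data the wt line was drawn with the spread of the T120D lines. That check could not show whether the real wt line varies to that degree. The fit had 3 residual and 5.99 prior degrees of freedom, its spread came from the T120D lines alone, on the assumption that wt varies to the same degree. The labels do not say whether lines were separate clones or cultures, so p-values measure only the spread between these samples, which may be technical. Fold values are ratios of RPKM.

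Depth was estimated from 1325 genes with a single transcript in the GENCODE annotation of GRCm38. Between 47.5% and 53.1% of their values under 20 reads were whole to within 0.05 reads, against 10% by chance, so whole reads were not recovered and reads per gene are approximate. Reference tables of GRCm38 served for names, transcript lengths, exon overlaps and promoter windows. For a gene with several annotated transcripts, their median length was used.

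Members, lists and motifs were chosen with earlier results of these data known. Values in every line were given for each called member, each regulator, Sqle, Fasn, Acaca, Scd1, Scd2 and the 4 members with the largest difference, and the other members were added. Of the other genes of the pathway, those called were named. Mbtps1, the partner of Mbtps2, was picked with its value in view. Some genes of the pathway are not reported here. The 10 alternatives changed the pseudocount, the filter, the trend or the scaling, or left out 1 T120D line.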

Additional observations from a re-analysis of the deposited data

How the results depend on the processing

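Of 307 repeats of the 31 members' differences over the 10 alternatives, 290 kept their direction and their side of the threshold, 3 lost and 3 gained a call, and 11 changed sign, all in uncalled members near 0. For the 12 other genes of the pathway, picked for being called, 88 of 117 repeats kept both, 29 lost the call and 0 changed sign. The kept repeats include all 9 of Vldlr, which passed the filter through wt alone and so carry no weight. With a mean of at least 5 RPKM, 1 sterol enzyme was called and the median of the sterol arm was 0.14, against 0.036 over all genes then tested. Median scaling also called 1 sterol enzyme, and quantile normalization called 2 fatty acid enzymes and turned Sqle to -0.031, Fdps to -0.0039 and Acly to -0.030. Without the filter on low values 1 regulator and 6 other genes of the pathway were called, and without a trend 816 genes over all, in place of 1317, with 1 regulator. Leaving out 1 T120D line gave 955 to 1382 calls over all genes, 1 to 2 regulators, 7 to 11 other genes of the pathway and a sterol arm median of 0.057 to 0.12. Over the same 4 repeats, Fdps ran from -0.028 to 0.15, Ebp from -0.39 to 0.040, Lss from -0.10 to 0.16, Mvk from -0.27 to 0.057 and Nsdhl from -0.070 to 0.034. The causes were not tested. No paired analysis was possible because the wt group had 1 line and shared no replicate number with T120D. Members that varied widely between T120D lines, such as Tm7sf2 and Ebp, could be called at large differences only, and an uncalled member is not shown to be unchanged.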

Other observations

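The summed level of the 17 measured sterol enzymes was 342, 372, 368 and 362 RPKM in T120D lines 3, 6, 15 and 18, against 321 RPKM in wt. Abundant enzymes weigh most in this sum, and the log2 difference was positive for 11 of the 17 and negative for 6. For the 8 fatty acid enzymes the sum was 364, 348, 356 and 348 RPKM in T120D lines 3, 6, 15 and 18, against 356 RPKM in wt, inside the T120D range. Scd2 made up 50.8% to 52.4% of that sum in T120D and 57.0% in wt. The ratio of Srebf2 to Srebf1 in RPKM was 5.13, 3.203, 4.52 and 4.01 in T120D lines 3, 6, 15 and 18, against 3.58 in wt, so that line 6 lay below wt and the others above it. Of the other pathway genes, 6 listed ones were under the filter on low values (Abca1, Acacb, Thrsp, Agpat2, Scd3 and Scd4). None of the 43 genes examined had a T120D line set apart from the other 3 beyond the 95% limit of Dixon's test.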
